A study of Saccharomyces cerevisiae with 11 samples.

Results

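The genes that load ribosomes onto capped mRNA were followed in replicatively aging budding yeast, at the level of RNA and of ribosome footprints. They are 10 genes of the 6668 in the count tables, named for their role in initiation, with earlier results of these data already known. TIF1 (YKR059W) and TIF2 (YJL138C) encode eIF4A, CDC33 (YOL139C) encodes eIF4E, TIF4631 (YGR162W) and TIF4632 (YGL049C) encode the forms of eIF4G, and TIF3 (YPR163C) encodes eIF4B. DED1 (YOR204W) encodes a DEAD-box helicase, PAB1 (YER165W) the poly(A)-binding protein, SUI1 (YNL244C) eIF1 and FUN12 (YAL035W) eIF5B. All 10 were found in every table, and all 10 passed the filter on low counts in each comparison.

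Cells of the diploid strain BY4743 (MATa/MATα, homozygous for his3Δ1, leu2Δ0 and ura3Δ0, heterozygous for lys2Δ0 and met15Δ0) were grown at 25 °C in synthetic medium with casamino acids. Biotin-labeled cells were cultured for 13 h. The unlabeled daughters left in the supernatant were collected as Young cells, and the labeled mothers bound to magnetic beads as Middle cells. Aged cells were such mothers grown for another 24 h in the MAD, a small culture vessel in which a magnet holds the mothers and the flow washes daughters away, so that Aged cells differ from the others in culture mode as well as in age. Age and culture mode cannot be told apart in the Aged comparisons. Young and Middle cells were both from batch culture, but only Middle cells carried beads and a biotin coat.

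Each age has 2 RNA-Seq libraries. Ribosome footprints were sequenced in 2 libraries of Young cells, 2 of Middle cells and a single library of Aged cells. Deposited totals were 476704 to 2585717 counts per RNA-Seq library and 168247 to 965156 counts per footprint library. The lowest total of either kind was that of Middle replicate 1. Mating-type genes that a MATa/MATα diploid keeps off (6 genes) summed to 53.0 to 131 CPM in RNA (counts scaled to library size, with TMM factors within each assay) and to 8.67 to 24.7 CPM in footprints, with up to 5 of the 6 at 0. HIS3, LEU2 and URA3, which the genotype deletes or truncates, had 12 to 412 counts each in the RNA-Seq libraries and 5 to 87 in the footprint libraries. A truncated gene can keep counts. Counts on a fully deleted gene go against the stated genotype and have no explanation in the files. In these bulk samples, fewer cells of a type and less RNA per cell cannot be told apart.

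In cap-dependent initiation, eIF4E holds the cap of the mRNA and binds eIF4G, a scaffold that also binds eIF4A and the poly(A)-binding protein. The helicase eIF4A, helped by eIF4B, and the helicase Ded1 open structure in the leader so that the small ribosomal subunit can land and scan. eIF1 sits on the scanning subunit and keeps it from stopping at poor start codons, and eIF5B joins the large subunit once the start codon is set. In yeast, eIF4A is among the most abundant of these factors.

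The start codons of the 10 genes are shown because these genes build the machinery that reads them. Each line gives the gene, 10 bases before the start codon, the start codon in capitals and the codon after it, from the RefSeq R64 sequence, which is the build used for the counts.
TIF1: tatatacaagATGtct
TIF2: taattgcaatATGtct
CDC33: aggaagaaaaATGtcc
TIF4631: tattacaataATGaca
TIF4632: tgtaggcactATGact
TIF3: aggacacatcATGgct
DED1: atttcatattATGgct
PAB1: taaaaataaaATGgct
SUI1: agcaaatcgtATGtcc
FUN12: taagtgaaagATGgcg
The base at position −3, counted back from the A of the start codon, was A in 9 of the 10 genes, as in 60.9% of 6022 annotated starts. SUI1 had C there, a base found at 8.7% of starts. A weak context at SUI1 is known from work in yeast, where eIF1 limits its own synthesis by rejecting poor starts. The coding sequences are TIF1 at chrXI:554987-556174 (plus strand), TIF2 at chrX:153504-154691 (minus), CDC33 at chrXV:60383-61024 (minus) and TIF4631 at chrVII:824059-826917 (plus). They continue with TIF4632 at chrVII:406860-409604 (minus), TIF3 at chrXVI:868645-869955 (minus), DED1 at chrXV:722911-724725 (plus) and PAB1 at chrV:510373-512106 (plus). SUI1 lies at chrXIV:187170-187496 (minus) and FUN12 at chrI:76427-79435 (plus). Each has 1 coding exon, and the reference has no other gene that overlaps it.

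TIF1 and TIF2 are nearly the same sequence, which bears on every value given for either. Their coding sequences of 1188 bases differ at 6 positions, encode the same protein, and run without a difference from base 229 to base 872, a stretch of 644 bases. Of the 1161 windows of 28 bases (a footprint length) in TIF1, 1055 (90.9%) also occur in TIF2. Coding bases 199 to 228 hold a pair of the differences, shown in capitals, and lie at chrXI:555185-555214 for TIF1 and chrX:154464-154493 for TIF2.
TIF1: caatctggtactggtaagaccggtacCttT
TIF2: caatctggtactggtaagaccggtacTttC
Footprint counts of TIF1 and TIF2 were almost equal in every library. They were 528 and 521 in Young replicate 1, 528 and 522 in Young replicate 2, 103 and 101 in Middle replicate 1, 278 and 280 in Middle replicate 2, and 1353 and 1335 in Aged cells. These pairs differ by 2 to 18 counts, less than the square root of their sums (14.3 to 51.8). How reads that fit both genes were shared out is not given in the sources used here, so the pair is best read as eIF4A as a whole. The remaining 8 genes are nearly free of such repeats. TIF3 has 84 of 1284 windows that recur elsewhere (6.5%), FUN12 has 0.1%, and the other 6 have 0.

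Most of the initiation factor genes had less RNA and fewer footprints in Middle cells than in Young cells, and more RNA in Aged cells than in Middle cells. RNA of Middle cells lay below that of Young cells, with no overlap between the replicates, for 6 genes (TIF1, TIF4631, TIF4632, TIF3, PAB1 and FUN12), a pattern that 29.6% of the 5818 genes tested share. Footprints of Middle cells lay below Young cells for 7 genes (TIF1, TIF2, TIF4631, TIF4632, TIF3, DED1 and FUN12), against 28.2% of the 4167 genes tested. In this and the other counts and medians of the 10, TIF1 and TIF2 enter as 2 genes, although most footprint-length windows occur in both. SUI1 alone lay above Young cells, in RNA (as 28% of all genes did) and in footprints (28.5%). The others overlapped Young cells: TIF2, CDC33 and DED1 in RNA, and CDC33 and PAB1 in footprints. The median log2 fold change of the 10 genes, Middle against Young, was −0.51 in RNA and −1.03 in footprints, beside −0.02 and −0.01 over all genes tested. In Aged against Middle RNA, 8 of the 10 genes lay above Middle cells without overlap (28.6% of 5674 genes did so), and the median was 0.86 beside 0.01 over all genes. Against Young cells, Aged RNA lay above for 5 genes (TIF1, TIF2, CDC33, PAB1 and SUI1, against 29.4% of 5897 genes) and below for 3 (TIF4632, DED1 and FUN12, against 28.9%). The Aged footprint library lay above both Young libraries for 2 genes (CDC33 and PAB1, against 39.7% of 4619 genes) and below them for 5 (TIF4631, TIF4632, TIF3, DED1 and FUN12, against 38.7%).

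**Figure D1:**
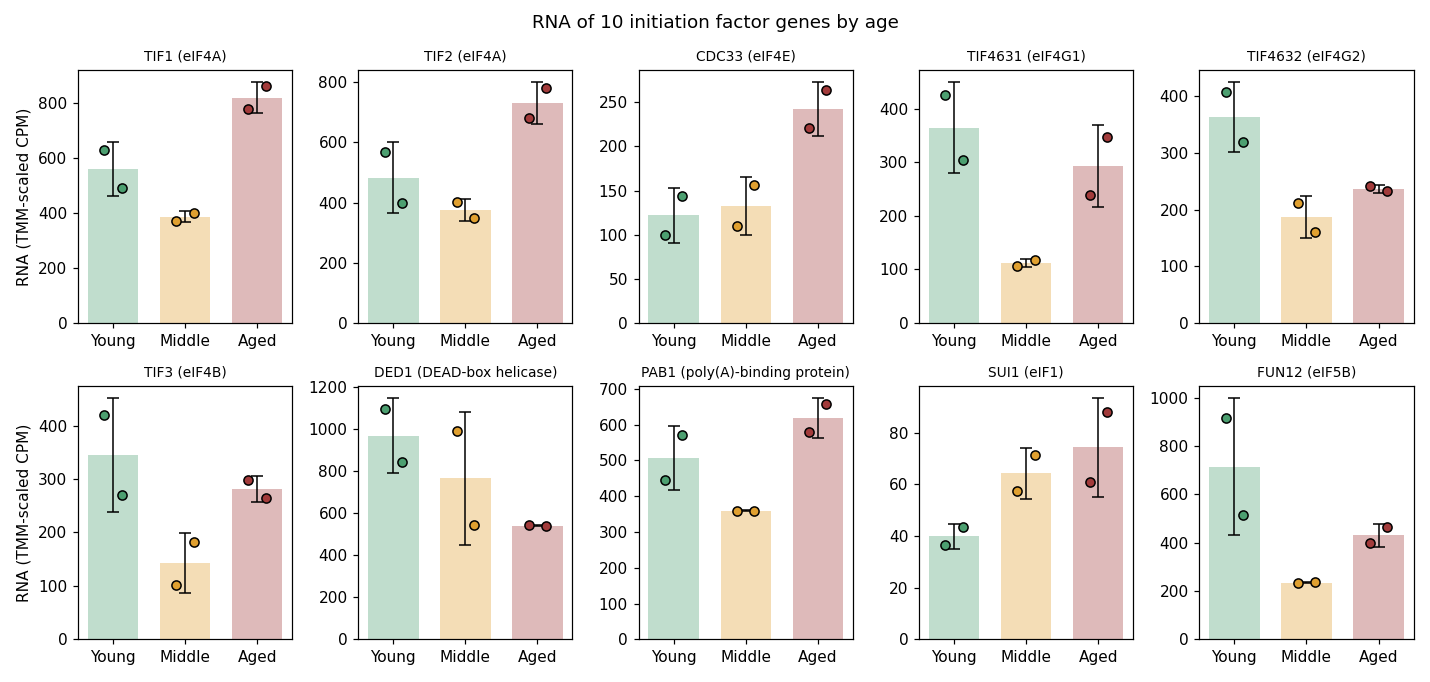
RNA level of each gene in TMM-scaled counts scaled to library size (CPM, vertical axis from 0) in Young, Middle and Aged cells. Points are libraries, bars are means and error bars are SDs (n = 2). TIF4631 is at 107 and 118 CPM in Middle cells, under all its other libraries, and SUI1 is lowest in Young cells.

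Few of these differences passed a test over all genes. By edgeR's quasi-likelihood test with Benjamini-Hochberg adjustment over all genes tested, TIF4631 alone fell in Middle against Young RNA, and no gene of the 10 rose (0.859% of the 5818 genes were called lower and 2.11% higher). In footprints, Middle against Young, TIF4631 alone fell and none rose, where 4.15% of the 4167 genes were called lower and 2.74% higher. Before adjustment, a p under 0.05 was reached by 4 genes as lower and 0 as higher in Middle RNA (11.3% and 12.4% of all genes), and by 5 as lower and 1 as higher in Middle footprints (14.4% and 11%). In Aged against Young RNA, 0 of the 10 passed, where 8.02% of 5897 genes were called higher and 4.93% lower. Taken without adjustment, a p under 0.05 was reached by CDC33 and SUI1 as higher and by DED1 as lower (15.3% and 12.6% of all genes), and DESeq2 called none of the 10. In Aged against Middle RNA, TIF1 and TIF4631 rose and none fell, where 4.76% of 5674 genes were called higher and 3% lower. Before adjustment, 7 were higher and 0 lower (13.7% and 11.5% of all genes). With the replicate number as a block, 7 of the 10 passed as higher after adjustment, where calls over all 5674 genes grew to 784 higher and 634 lower. The calls depended on single libraries, and so did calls over all genes. With each library left out in turn, the median of the 10 ran from −0.65 to −0.49 in Middle RNA and from −1.36 to −0.68 in Middle footprints. In Aged against Middle RNA it ran from 0.70 to 0.91. Each of these fits leaves a lone library for an age.

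**Figure D2:**
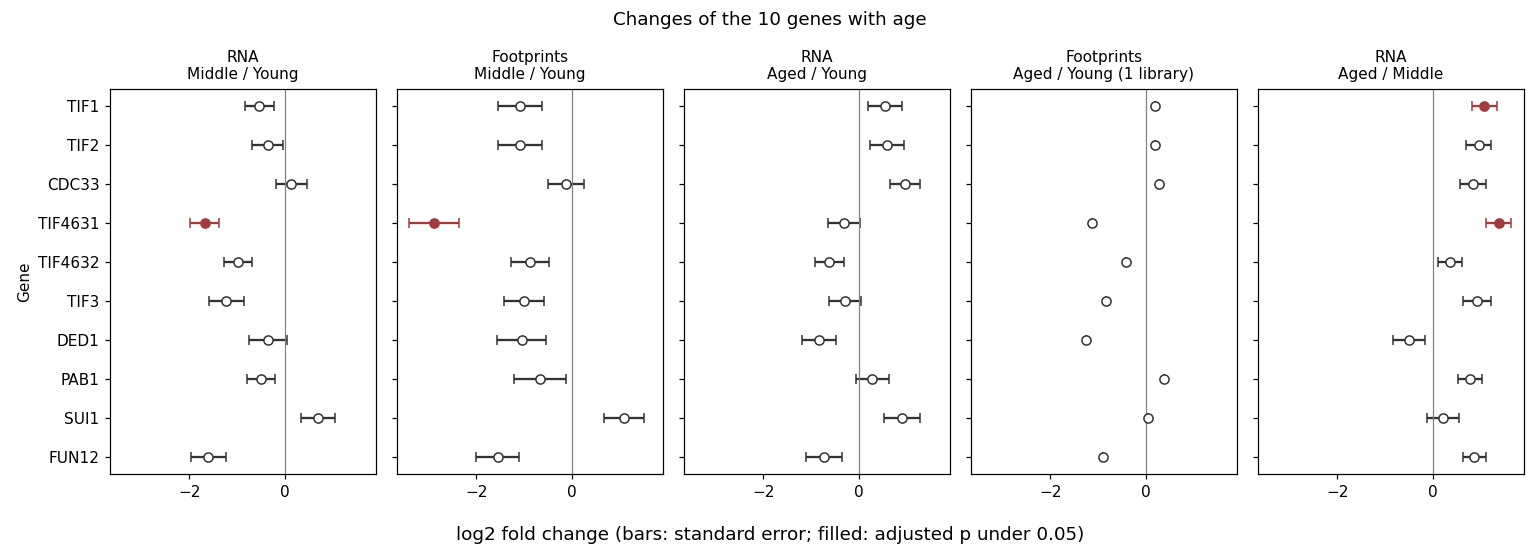
log2 fold change of each gene (horizontal axis) in 5 comparisons, 1 panel each, with standard errors as bars. Filled points passed an adjusted p of 0.05, which was so for TIF4631 in 3 panels and TIF1 in 1. The panel of Aged footprints has no error bars because Aged cells have 1 footprint library.

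The scaffold gene TIF4631 (eIF4G1) showed the largest decrease of the 10 in Middle cells. Its RNA was 425 and 304 CPM in Young cells, 107 and 118 CPM in Middle cells, and 239 and 347 CPM in Aged cells. Both Middle libraries lay below every other library, and Aged cells overlapped Young cells. RNA fell 3.20-fold in Middle against Young cells (log2 fold change −1.68 ± 0.30 (SE), 95% confidence interval −2.36 to −0.997, adjusted p = 0.0360 by edgeR) and rose 2.61-fold in Aged against Middle cells (1.38 ± 0.27, adjusted p = 0.0160). Against Young cells, the Aged value was −0.30 ± 0.34 (adjusted p = 0.606). Footprints of TIF4631 were 456 and 197 CPM in Young cells, 43.2 and 44.9 CPM in Middle cells, and 148 CPM in Aged cells. They rested on 7 and 23 counts in Middle cells, and the exact Poisson interval of the 7 counts is 2.81 to 14.4, which covers counting error only. Footprints fell 7.35-fold in Middle cells (−2.88 ± 0.52, interval −4.03 to −1.73, adjusted p = 0.0148), although the replicates of Young cells themselves differed 2.32-fold. The Aged value, with no test, was −1.13. The call of the Middle decrease was lost in RNA without Middle replicate 1 and in footprints without Middle replicate 2, though the values stayed similar (−1.58 and −2.90). The call of the rise in Aged against Middle cells was lost without Aged replicate 2 (value 1.09), Middle replicate 1 (1.31) or Middle replicate 2 (1.46).

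TIF4632 (eIF4G2), its paralog, encodes a scaffold of the same kind and can replace it for growth. TIF4632 RNA was 407 and 319 CPM in Young cells, 212 and 160.3 CPM in Middle cells, and 241 and 232 CPM in Aged cells. Footprints were 150.2 and 118 CPM in Young cells, 80.2 and 68.3 CPM in Middle cells, and 99.6 CPM in Aged cells. Middle and Aged libraries lay below the Young libraries on both levels, but no comparison passed the test. The log2 fold change in Middle against Young cells was −0.97 ± 0.30 in RNA (adjusted p = 0.0986) and −0.88 ± 0.40 in footprints (adjusted p = 0.197). Unlike the eIF4A pair, the eIF4G genes can be told apart by sequence: they are identical at 66.8% of 2643 aligned positions and share no window of 28 bases.

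The ratio between the eIF4G genes was lowest in Middle cells. Per codon, TIF4631 had 1.00 and 0.916 times the RNA counts of TIF4632 in Young cells, 0.485 and 0.706 times in Middle cells, and 0.952 and 1.44 times at the Aged stage. In footprints, the ratio was 2.92 and 1.60 for Young cells, 0.517 and 0.631 for Middle cells, and 1.42 for Aged cells. TIF4631 thus had more footprints per codon than its paralog in each Young library and in the Aged library, and fewer in each Middle library. The ratio was not tested. For the eIF4A pair, most footprint-length windows occur in both genes and the sharing of such reads is not given, so the ratio of TIF1 to TIF2 (0.993 to 1.02 in footprints, 0.923 to 1.23 in RNA) does not measure the balance of these genes and is no comparison for eIF4G.

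**Figure D3:**
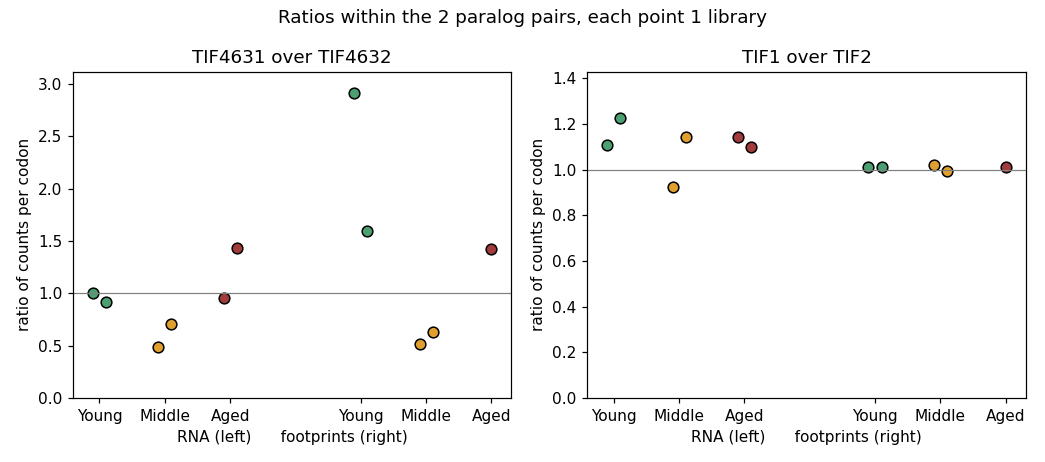
Ratio of counts per codon within each paralog pair (vertical axes from 0), RNA on the left of each panel and footprints on the right, by age. Each point is 1 library. TIF4631 over TIF4632 is under 1 in all 4 Middle libraries, and TIF1 over TIF2, which share most footprint-length windows, is 0.993 to 1.02 in footprints.

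As counted, the genes of the helicase eIF4A had the most footprints per length of the 10 at each age, with the sharing of their common reads not given. TIF1 RNA was 629 and 491 CPM in Young cells, 372 and 402 CPM in Middle cells, and 779 and 860 CPM in Aged cells, so the ages did not overlap. TIF1 rose 2.12-fold in Aged against Middle cells (log2 fold change 1.08 ± 0.26, adjusted p = 0.0388 by edgeR). That call was lost without any of its 4 libraries: the adjusted p was 0.0538 without Aged replicate 1, 0.176 without Aged replicate 2, 0.218 without Middle replicate 1 and 0.141 without Middle replicate 2. It was also lost with the counts of TIF1 and TIF2 summed (1.02, adjusted p = 0.0684). TIF2 RNA was 568 and 399 CPM in Young cells, 403 and 351 CPM in Middle cells, and 682 and 781 CPM in Aged cells. Its Aged against Middle value was 0.96 ± 0.26 (adjusted p = 0.0584). In Middle against Young cells, RNA was −0.53 ± 0.31 for TIF1 (adjusted p = 0.334) and −0.36 ± 0.32 for TIF2 (adjusted p = 0.524).

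Footprints of eIF4A were lowest in Middle cells. TIF1 had 1525 and 945 CPM in Young cells, 635 and 542 CPM in Middle cells, and 1418 CPM in Aged cells. TIF2 had 1505 and 935 CPM in Young cells, 623 and 546 CPM in Middle cells, and 1399 CPM in Aged cells. Both Middle libraries lay under both Young libraries, and the Aged library lay between the Young libraries. The Middle against Young change was −1.09 ± 0.47 for TIF1 (adjusted p = 0.173) and −1.08 ± 0.46 for TIF2 (adjusted p = 0.174), which did not pass.

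CDC33, the cap-binding eIF4E, had overlapping levels in Middle and Young cells in RNA and in footprints. CDC33 RNA was 99.97 and 144 CPM in Young cells, 109.7 and 156 CPM in Middle cells, and 220.4 and 264 CPM in Aged cells. Both Aged libraries lay above all the others. The log2 fold change was 0.14 ± 0.32 in Middle cells (interval −0.58 to 0.86, adjusted p = 0.828) and 0.98 ± 0.32 in Aged cells against Young cells (interval 0.29 to 1.68, adjusted p = 0.0641), neither of which passed. Footprints were 248 and 231 CPM in Young cells, 240.5 and 209 CPM in Middle cells, and 292 CPM in Aged cells. Their Middle against Young change was −0.11 ± 0.38 (interval −0.95 to 0.72).

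TIF3 (eIF4B) stimulates eIF4A. TIF3 RNA was 420.3 and 270.0 CPM in Young cells, 103 and 183 CPM in Middle cells, and 298 and 265 CPM in Aged cells. Middle cells lay below the others and Aged cells overlapped Young cells. The Middle against Young value was −1.23 ± 0.37 (adjusted p = 0.0958). Footprints were 292 and 177 CPM in Young cells, 105 and 127 CPM in Middle cells, and 131 CPM in Aged cells, a Middle value of −1.0004 ± 0.42 (adjusted p = 0.166) and an Aged value of −0.83 with no test.

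**Figure D4:**
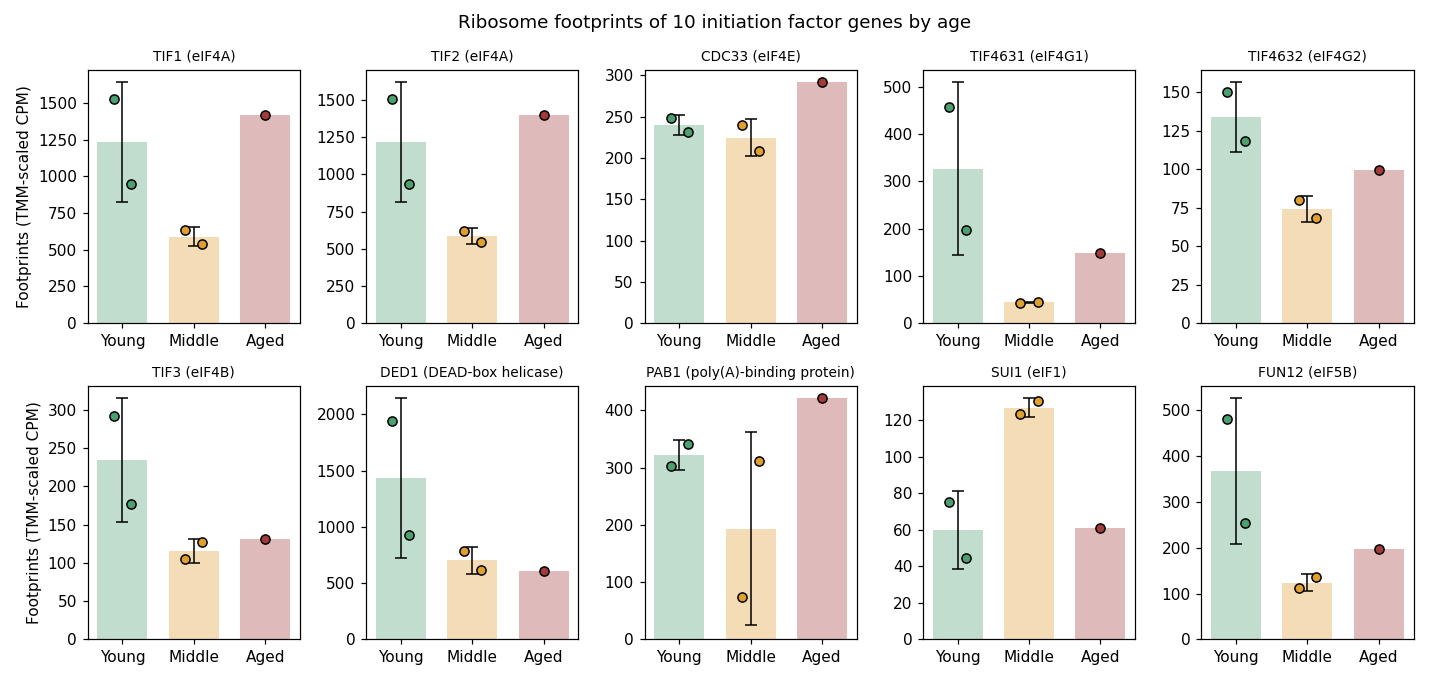
Ribosome footprints of each gene in TMM-scaled counts scaled to library size (CPM, vertical axis from 0) in Young, Middle and Aged cells. Points are libraries, bars are means and error bars are SDs where n = 2, and Aged cells have 1 library. SUI1 is highest in Middle cells (123 and 131 CPM), and PAB1 differs between the Middle replicates (74.0 and 312 CPM).

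DED1 was the only gene of the 10 with less RNA in Aged than in Middle cells. DED1 encodes a helicase needed for scanning on long or structured leaders. Its RNA was 1094 and 841 CPM in Young cells, 989 and 542 CPM in Middle cells, and 541 and 539.9 CPM in Aged cells. Aged cells lay below every other library, although Middle replicate 2 was at nearly the same level. The log2 fold change in Aged against Young cells was −0.84 ± 0.36 (adjusted p = 0.152). Footprints were 1936 and 927 CPM in Young cells, 783 and 619 CPM in Middle cells, and 604 CPM in Aged cells, and the Young replicates differed 2.09-fold. The footprint change was −1.05 ± 0.51 in Middle cells (adjusted p = 0.229) and −1.24 in Aged cells, with no test. DED1 and TIF4631 were the 2 genes of the 10 past a 2-fold decrease in Aged footprints (18.4% of 4619 genes were), and none was past a 2-fold increase (16.5%). These values moved with the Young libraries. Without Young replicate 1, no gene of the 10 was past a 2-fold decrease (DED1 at −0.62 and TIF4631 at −0.42), and without Young replicate 2 there were 4 (DED1 at −1.76, TIF4631 at −1.71, FUN12 at −1.37 and TIF3 at −1.24).

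PAB1, whose protein coats poly(A) tails and binds eIF4G, had 444 and 569.8 CPM of RNA in Young cells, 360.0 and 359 CPM in Middle cells, and 579 and 658 CPM in Aged cells. The ages did not overlap in RNA, and none of the changes passed (−0.49 ± 0.30 in Middle against Young cells with an adjusted p of 0.352, 0.29 ± 0.34 in Aged against Young cells with 0.627). PAB1 footprints were 303 and 340.2 CPM in Young cells, 74.0 and 312 CPM in Middle cells, and 421 CPM in Aged cells. The Middle replicates differed 4.22-fold, from 12 counts in replicate 1 and 160 in replicate 2, the widest gap of the 10 genes. The fitted change of −0.67 ± 0.55 (adjusted p = 0.495) became −0.04 without Middle replicate 1 and −2.11 without Middle replicate 2, so the value for PAB1 footprints in Middle cells depended on which replicate was kept.

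SUI1, the shortest of the 10 genes, went the other way. SUI1 RNA was 36.4 and 43.3 CPM in Young cells, 57.2 and 71.3 CPM in Middle cells, and 60.8 and 87.8 CPM in Aged cells. Both older ages lay above Young cells and overlapped each other. The log2 fold change was 0.70 ± 0.35 in Middle cells (adjusted p = 0.264) and 0.91 ± 0.38 in Aged cells (adjusted p = 0.147), against Young cells. SUI1 footprints were 75.1 and 44.8 CPM in Young cells, 123 and 131 CPM in Middle cells, and 60.8 CPM in Aged cells. Middle cells lay above all others, with 20 and 67 counts, and the Aged library lay between the Young libraries. The Middle change of 1.10 ± 0.42 (interval 0.17 to 2.03, adjusted p = 0.135) did not pass over all genes.

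FUN12 (eIF5B), the GTPase that joins the subunits, had the values nearest to those of TIF4631 in Middle cells. FUN12 RNA was 916 and 514 CPM in Young cells, 234 and 236 CPM in Middle cells, and 397 and 464 CPM in Aged cells, so that the ages did not overlap. Its Middle against Young value was −1.60 ± 0.37 (adjusted p = 0.0552) and its Aged against Middle value 0.88 ± 0.24 (adjusted p = 0.0567). Footprints were 479.6 and 254 CPM in Young cells, 111 and 137 CPM in Middle cells, and 197 CPM in Aged cells, a Middle value of −1.55 ± 0.45 (adjusted p = 0.0594). These values did not pass. The decrease passed in RNA by DESeq2 (adjusted p = 0.00566) and by a fit over all 3 ages (0.0293), and in footprints with no filter on low counts (0.0162) and with a minimum of 10 counts in each library (0.0249). Over all 9 alternatives that kept every library, the adjusted p of FUN12 ran from 0.00566 to 0.0551 in RNA and from 0.0162 to 0.0861 in footprints.

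Translational efficiency was read in each lysate as the ratio of footprints to RNA. The eIF4A genes had ratios of footprint CPM to RNA CPM of 1.35 to 2.65 in every lysate, while TIF4632 had 0.369 to 0.430 and FUN12 0.425 to 0.578. The eIF4A ratios depend on how reads shared by TIF1 and TIF2 were counted in each assay, which is not given. The ratios of TIF4632 and FUN12 thus spanned a narrow range over the ages. In Middle cells, ratios as small occurred in TIF4631 and in replicate 1 of PAB1. TIF4631 had ratios of 1.07 and 0.648 for Young cells, 0.402 and 0.381 for Middle cells, and 0.617 and 0.426 for Aged cells, where the single footprint library was divided by each RNA-Seq library in turn. Its Young ratios lay above all others. PAB1 had 0.206 and 0.869 in Middle cells, a wider gap than among its other ratios (0.597 to 0.727). SUI1 had 2.07 and 1.03 for Young cells, 2.16 and 1.83 for Middle cells, and 1.00 and 0.693 for Aged cells.

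**Figure D5:**
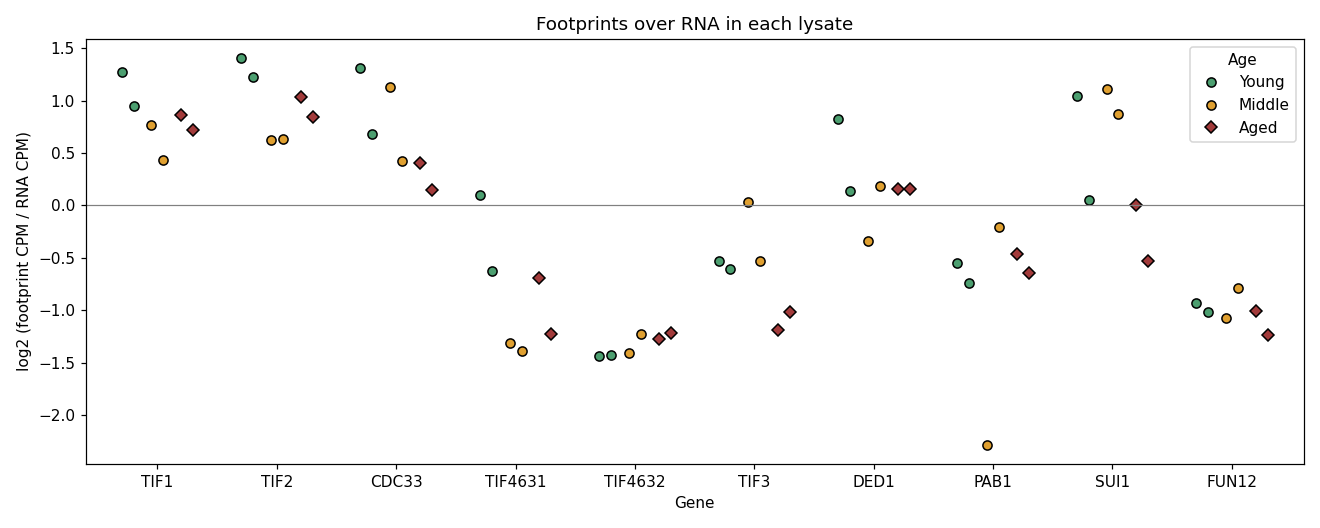
log2 ratio of footprint CPM to RNA CPM (vertical axis) for each gene, by age. Each point is 1 lysate, except that both Aged points use the same footprint library over 1 of the Aged RNA-Seq libraries. The TIF4631 points are highest in Young cells, and those of TIF4632 and FUN12 lie close together.

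None of the 10 genes passed a test of translational efficiency. In edgeR's joint fit of both assays, tested on the interaction of age and assay, 0 of the 10 genes passed in Middle against Young cells (adjusted p = 0.9998 for each), where 0% of the 5334 genes tested passed in either direction. At p under 0.05 before adjustment, 0 of the 10 and 169 of all genes (3.17%) were past the threshold, and DESeq2 also called 0 genes. RNA and footprints of a number came from 1 lysate by the methods, and with the lysate as a block 8 genes were called higher and 47 lower over the whole table, none of the 10 among them (adjusted p from 0.387 for TIF4631 to 0.998 for FUN12). Without a block, the largest value was that of TIF4631, −1.14 ± 0.61 with an interval of −2.46 to 0.19, so that neither no change nor a decrease of more than 2-fold lies outside it. The intervals of the other 9 genes also covered 0, among them −1.67 to 0.67 for TIF1, −1.22 to 0.82 for CDC33, −0.88 to 1.18 for TIF4632 and −0.63 to 1.57 for SUI1. In Aged against Young cells, with no test, the values ran between −0.75 for SUI1 and 0.29 for TIF4632, with TIF4631 at −0.73 and CDC33 at −0.59. None of the 10 was past 2-fold, where 10% of 6028 genes were past it upward and 13% downward. Single libraries moved these values too. Without Young footprint replicate 2, TIF4631 (−1.23) and SUI1 (−1.12) were past a 2-fold decrease, and without Young footprint replicate 1 TIF4631 was at −0.0106 and SUI1 at −0.36. DED1 (−0.75 to 0.32), FUN12 (−0.52 to 0.46), TIF1 (−0.56 to 0.13), TIF2 (−0.61 to 0.0810) and PAB1 (−0.00655 to 0.38) changed sign with the library left out.

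Per length, the eIF4A genes stood at the top of the footprints and the eIF4G genes at the bottom. How reads shared by TIF1 and TIF2 were counted is not given, so the level and rank of each depend on it. On the scale of footprint CPM per kilobase of counted sequence, Young cells ranked TIF1 first (1067 ± 354, SD, n = 2) and TIF2 next (1053 ± 348), then DED1 (802 ± 399), CDC33 (392 ± 20.2), SUI1 (202 ± 72.3), PAB1 (189 ± 15.3), TIF3 (183 ± 63.2), FUN12 (123 ± 53.5), TIF4631 (115 ± 64.9) and TIF4632 (49.4 ± 8.35). Neighbors from SUI1 to TIF4631 did not differ beyond their spread, nor did the first 3. In Middle cells, SUI1 stood after the eIF4A pair at 428 ± 17.6, above DED1 at 393 ± 65.2 and CDC33 at 367 ± 36.6. The replicates of DED1 overlapped those of both neighbors. TIF4631 was last at 15.6 ± 0.428. RNA per kilobase was highest for DED1 in Young (542 ± 100.4) and Middle cells (429 ± 177). In Aged cells it was highest for TIF1 (708 ± 49.6), with TIF2 (632 ± 60.5), CDC33 (396 ± 50.4), PAB1 (363 ± 32.6) and DED1 (303 ± 0.596) after it. The eIF4G genes held the last ranks in RNA and in footprints at each age, although SUI1 was at the same RNA level as TIF4632 in Young cells (134 for each).

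Genes that are read in newborn daughters were followed as markers of those cells. Summed over 8 daughter-specific genes (such as DSE1, CTS1 and AMN1), RNA was 957 and 421 CPM in Young cells, 1092 and 620 CPM in Middle cells, and 1444 and 1473 CPM in Aged cells, with none of the 8 at 0 in any RNA-Seq library. In Aged against Young RNA, 3 of the 8 passed as higher (AMN1, DSE1 and CTS1), where 8.02% of all genes did, and without Young replicate 2 none of the 5958 genes then tested passed. ASH1, a repressor found in daughter nuclei, had values of −0.14 in that comparison, −0.61 in Aged against Middle RNA and −1.15 in Aged against Young footprints. In Aged against Middle RNA, 2 of the 8 passed as higher (AMN1 and DSE4), where 4.76% of all genes did. These calls changed with the library left out, as did calls over all genes. Their footprints were 962 and 457 CPM in Young cells, 765 and 542 CPM in Middle cells, and 1495 CPM in Aged cells, with up to 2 of the 8 at 0 in a library. The part of newborn daughters in the Aged values of the initiation factor genes was not tested.

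The genes whose pattern was most like the mean of the 10 were GFA1 (Pearson r = 0.990), TCP1 (0.984), RPG1 (0.977), GRS1 (0.974) and YDR341C (0.973). The measure was r of log2 CPM centered within each assay, over the 11 libraries, among 1708 genes with a mean of at least 50 counts in each assay. SUI1 did not reach that mean, so 9 genes entered the average. The libraries differ in depth and share preparation within an assay, so r is a description only. Against the same average, of which each is a part, TIF4631 had r = 0.987 and FUN12 0.938, and at the other end PAB1 had 0.632, DED1 0.481 and CDC33 0.253. GFA1 makes glucosamine-6-phosphate, TCP1 is a subunit of the cytosolic chaperonin, GRS1 is the glycyl-tRNA synthetase and RPG1 is the largest subunit of eIF3.

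The other initiation factors, 19 genes for eIF1A, eIF2, eIF2B, eIF3, eIF5, eIF6 and their helpers, also included genes that fell in Middle footprints. Against Young cells, 4 of the 18 that were tested fell and none rose (4.15% and 2.74% of all 4167 genes). The list median was −0.76 beside −0.01 over all genes. PRT1, a subunit of eIF3, had 55.5 and 109 CPM in Middle cells, against 870 and 406 CPM in Young cells (log2 fold change −2.88, adjusted p = 0.0153 by edgeR). The eIF3 subunits RPG1 (−2.30, adjusted p = 0.0222) and NIP1 (−2.28, 0.0222) fell as well, as did RLI1, the ATPase that splits ribosomes after termination (−2.21, 0.0346). RPG1 had 67.8 and 123 CPM in Middle cells, against 633 and 347 CPM in Young cells. In RNA, 0 of the 19 passed in Middle against Young cells by edgeR (0.859% of all genes were lower and 2.11% higher), with a median of −0.60. At an unadjusted p under 0.05, 7 were lower and 1 was higher (11.3% and 12.4% of all genes). DESeq2 called 1 lower, as it did 146 of all 5818 genes. Calls in footprints and in RNA changed with the library left out, as did those over all genes.

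All 19 of these factors had a positive value in Aged against Middle RNA, with a median of 0.68, and 5 rose (4.76% of 5674 genes did). They were TIF11, which encodes eIF1A (1.95, adjusted p = 0.0427 by edgeR), RLI1 (1.56, 0.0202), SUI3, a subunit of eIF2 (1.51, 0.0107), and the eIF3 subunits RPG1 (1.20, 0.0201) and TIF35 (1.02, 0.0472). SUI3 had 180 and 218 CPM in Aged cells, against 76.3 and 66.4 CPM in Middle cells. Against Young cells, 2 of the 19 rose, where 8.02% of all genes did, with a list median of 0.29. These were TIF6, the eIF6 gene (1.28, adjusted p = 0.0289 by edgeR), and SUI3 (1.12, 0.0471). Both calls against Young cells were lost with any library left out. The Aged against Middle calls changed as well, and so did calls over all genes.

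Partners and repressors of the cap complex (10 genes, among them the eIF4E-binding proteins CAF20 and EAP1) had no call. None of the 10 passed any of the 5 tests by edgeR or by DESeq2, and the list medians were 0.39 in Middle RNA, 0.05 in Middle footprints and 0.29 in Aged RNA, all against Young cells. In Aged against Middle RNA the list median was −0.22, with 7 values negative and 3 positive. At an unadjusted p under 0.05, 1 gene was higher in Middle RNA (12.4% of all genes were), 2 in Middle footprints (11%) and 1 in Aged RNA (15.3%). DBP1 was lower in Aged against Middle RNA, as were 11.5% of all genes. DBP1, a paralog of DED1 with a similar helicase role, had 219 and 207 CPM of RNA in Middle cells, against 53.4 and 116 CPM in Young cells (1.30, adjusted p = 0.0795 by edgeR). DBP1 footprints were 86.3 and 135 CPM in Middle cells, against 23.1 and 46.6 CPM in Young cells (1.65, adjusted p = 0.0594). PAN3, part of the nuclease that trims poly(A) tails, had a value of 0.79 in Aged against Young RNA (adjusted p = 0.142). DED1 itself was −0.35 in Middle RNA and −1.05 in Middle footprints, and the difference between DED1 and DBP1 was not tested. With a library left out, calls among these partners appeared in Middle RNA, Middle footprints and Aged against Middle RNA, where calls over all genes also changed.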

How the data were processed

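For every library, the authors deposited raw read counts on 6668 coding sequences. Reads were trimmed with Fastp, reads on non-coding RNA were removed, and the others were aligned to S288C (R64, sacCer3) with STAR 2.7.0a. The submitters' processing notes also name CASAVA 1.8. An offset of 15 nt was used for RNA-Seq reads, footprints were assigned to the A site according to their length, and the outer 5 codons at each end were excluded. The second deposited column (unit: other) is a length in codons, which equals the reference length minus these codons for 99.4% of 5988 genes. Which annotation was used, whether counting used strand and how multi-mapping reads were counted are not given in the sources used here. The methods call the Young and Middle pairs biological replicates, and p-values measure the spread between these libraries.

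The main test was edgeR's quasi-likelihood test after filterByExpr and TMM scaling (edgeR 4.0.16 and limma 3.58.1 under R 4.3.3), with DESeq2 1.42.0 for comparison. Each comparison was fitted on its own 2 ages, and the 3 RNA comparisons share libraries. Translational efficiency was the age-by-assay interaction. Tests were two-sided with Benjamini-Hochberg adjustment over all genes tested and a threshold of 0.05. Aged footprints have 1 library, so fold changes only are given. CPM were scaled by TMM within each assay. Intervals cover 95%. The sequences were taken from RefSeq R64. The scripts were tested on simulated data.

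The 10 genes were given by name, and they and the other lists were chosen with earlier results of these data known. All 10 are named, with the genes of each wider list that passed any of the 5 tests, at least the 2 of smallest p, and the 5 most alike (pseudocount of 0.5 CPM). Alternatives tried were library totals, size factors from DESeq2, TMM within each assay or without ribosomal protein genes, no filter, a minimum of 10 counts in each library, 1 fit of all 3 ages, DESeq2, replicate and lysate blocks, TIF1 and TIF2 summed, and each library left out (for the wider lists, DESeq2 and each library left out).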

Additional observations from a re-analysis of the deposited data

How the results depend on the processing

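TIF4631 stayed called in Middle against Young RNA and in Aged against Middle RNA under all 9 alternatives that kept every library (adjusted p from 0.00264 to 0.0463 and from 1.69e-06 to 0.0236), and in Middle footprints under the 8 in which it was tested (2.33e-06 to 0.0119). Under a minimum of 10 counts it was not tested in footprints, because Middle replicate 1 has 7. In Middle RNA, 2 genes passed as lower with no filter, in 1 fit of the 3 ages and by DESeq2 (main 1). In Aged against Middle RNA, 4 passed as higher with a minimum of 10 counts per library, and 1 in the fit of 3 ages and with TIF1 and TIF2 summed (main 2). In Middle footprints, 2 passed as lower under TMM without ribosomal protein genes, with no filter and with TIF1 and TIF2 summed (main 1). With each library left out in turn, and the lone library of an age assumed to vary like the other group, the number passing was 0 to 4 in Middle RNA, 0 to 1 in Aged against Middle RNA and 0 to 6 in Middle footprints, and 0 stayed 0 for translational efficiency. Library totals moved the median of all genes to 0.18 in Middle footprints and turned the sign of CDC33 there (0.0697) and of PAB1 in Middle translational efficiency (0.0923), neither of them called.

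Leaving out a library turned the sign of uncalled values. In RNA, Middle against Young, CDC33 ran from −0.18 to 0.44 and DED1 from −0.79 to 0.0209. TIF3 ran from −0.58 to 0.0485 in Aged against Young RNA, and SUI1 from −0.0944 to 0.42 in Aged against Middle RNA. CDC33 ran from −0.20 to 0.0107 in Middle footprints. In Aged against Young footprints, which have no test, TIF1 and TIF2 each ran from −0.19 to 0.58 and SUI1 from −0.39 to 0.44. In Middle translational efficiency, the ranges were −0.14 to 0.82 for TIF3, −0.51 to 0.12 for CDC33, −0.13 to 0.30 for TIF4632, −0.45 to 0.57 for FUN12 and −1.65 to 0.42 for PAB1. In a fit of all 3 ages, which assumes that the lone Aged footprint library varies like the others, none of the 10 passed in Aged footprints (TIF4631 −1.13, adjusted p = 0.225). Aged footprints could not be analyzed without their only library.

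By the methods, RNA and footprints of 1 number came from the same lysate, and these deviated together (r across 5757 genes was 0.354 in Young and 0.254 in Middle cells). The ages were taken from such cultures as well, but no source ties equal numbers of different ages to 1 culture. For these, r was 0.169 for Young and Middle RNA, 0.0258 for Young and Aged RNA and 0.0651 for Young and Middle footprints. For Middle and Aged RNA it was 0.311, between the values of the lysate pairs. The values thus do not settle whether Middle and Aged cells of a number were paired, and the main tests did not take ages as paired. With a replicate block, 3 of the 10 passed as lower in Middle RNA, 1 as higher in Aged RNA and 2 as lower in Middle footprints. With the block, 7 passed as higher in Aged against Middle RNA, TIF2, CDC33, TIF3, PAB1 and FUN12 beside TIF1 and TIF4631 (adjusted p of the 5 gained from 0.00148 to 0.0125 by edgeR). Calls over all genes grew with the block as well: 337 higher and 204 lower in Middle RNA, 784 and 634 in Aged against Middle RNA, and 281 and 400 in Middle footprints. In Middle translational efficiency, the block called 1 and 9 genes, and a block by lysate 8 and 47, none of the 10 among them. In Aged translational efficiency, the block by lysate put TIF4631 at −0.35 and SUI1 at −0.39.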

Other observations

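The translation genes downstream of initiation were measured in the same libraries. Of 9 elongation factor genes, 1 fell in Middle footprints, where 4.15% of 4167 genes did. YEF3, the fungal elongation factor eEF3, had 327 and 835 CPM in Middle cells, against 4544 and 2363 CPM in Young cells (log2 fold change −2.56, adjusted p = 0.0403 by edgeR). By DESeq2, 4 of the 9 fell, as did 167 of all 4167 genes. The YEF3 call was lost without either Middle library. The list median was −1.17, beside −1.03 for the 10 initiation factor genes. TEF1 and TEF2 had nearly the same values (−1.17 and −1.16), as did EFT1 and EFT2 (−2.29 and −2.30). Whether these pairs share reads was not tested, so the counts and the median of the 9 may hold the same reads more than once. HYP2, the eIF5A gene, alone rose in Aged RNA (8.02% of all genes did), with 2259 and 1864 CPM in Aged cells, against 486 and 682 CPM in Young cells (1.82, adjusted p = 0.0148 by edgeR). TEF4, a subunit of the exchange factor eEF1B, alone rose in Aged against Middle RNA (4.76% of all genes did). It had 439 and 382 CPM in Aged cells, against 167 and 140 CPM in Middle cells (1.43, adjusted p = 0.00864 by edgeR). The calls were lost without either Young library in Aged against Young RNA and without Middle replicate 2 in Aged against Middle RNA. Calls over all genes changed in these fits as well.

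Cytosolic ribosomal protein genes had a different pattern in Aged cells from the 10 initiation factor genes, and the difference between the lists was not tested. The ribosomal protein list holds paralogs, and how reads that fit more than 1 of them were counted is not given. In Aged against Young RNA, 115 of 139 ribosomal protein genes rose (8.02% of all genes did) and none fell, with a median of 2.17, beside 0 of the 10 and a median of −0.002. In Aged against Middle RNA, 122 of the 138 tested rose (4.76% of all genes did), with a median of 2.699 beside 0.86. In Middle footprints, 6 of the 133 tested fell, a share close to the 4.15% of all genes, with a median of −1.34 beside −1.03, and all 133 values were negative. At an unadjusted p under 0.05 by edgeR, 89 of the 133 were lower, where 14.4% of all genes were. Without Young replicate 2, the Aged against Young calls of ribosomal protein genes were lost, as were those over the whole table. Their calls in Middle footprints and in Aged against Middle RNA also changed with the library left out, and so did calls over all genes.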
